A study of Homo sapiens with 6 samples.

Results

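Most ABC transporter genes encode ATP-driven membrane proteins, and 42 genes of this family were followed here in HMEC-1 endothelial cells given EPC-Exos. The members were the genes on the array whose symbol is ABCA, ABCB, ABCC, ABCD, ABCE, ABCF or ABCG followed by a number, taken from probe sets (groups of array probes that read 1 transcript) annotated with that gene alone. They had 125 of the 49395 probe sets and were 42 of 18132 genes, and 6 further probe sets that name an ABC gene together with another gene were left out. HMEC-1 is an established line of human microvascular endothelial cells, immortalised with a viral oncoprotein and kept here in serum-free medium. RNA was hybridised to Affymetrix arrays from 3 samples of cells given an equal volume of PBS and from 3 given EPC-Exos at 1e+11 particles per mL, in both cases for 24 hours. The labels do not spell out EPC-Exos, which the study is known to use for exosomes, small vesicles shed by endothelial progenitor cells. All samples come from 1 cell line, and no label says that replicates were cultured separately, so p-values reflect how far these arrays spread, possibly for technical reasons. An array averages over all cells of a sample, so fewer expressing cells and less RNA per cell cannot be told apart.

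ABC proteins share a nucleotide-binding domain that hydrolyses ATP, and most couple it to membrane-spanning segments that move a substrate across a membrane. Several A and G members export cholesterol and phospholipid to lipoproteins, under the control of the sterol-activated nuclear receptors called LXR, whereas ABCB1, ABCG2 and much of the C subfamily export drugs and conjugated metabolites and help to form the blood-brain barrier in brain endothelium. B members of mitochondria and D members of peroxisomes and lysosomes work inside the cell. The E and F proteins have no membrane-spanning segment and act on ribosomes and translation, so the name transporter does not describe them.

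The 6 arrays had median log2 signals between 6.25 and 6.34 and correlated at 0.997 to 0.998 within a group and 0.988 to 0.989 between groups. The 17 Tag controls, probe sets designed against non-human sequence, had mean log2 signals of at most 4.97 and served as a guide to background. Of 12 endothelial marker genes 7 passed the signal filter, a mean log2 signal of 5.45, and 3 of these were higher and 0 lower with EPC-Exos by limma (3 and 0 at an unadjusted p under 0.05). The 3 are 42.9% of the 7. Of all genes tested, 49.1% had an adjusted p under 0.05 by limma, 21.7% higher and 27.3% lower. The endothelial markers that passed had PBS means of 9.98 (ROBO4), 9.16 (ENG), 7.36 (TIE1), 7.16 (ESAM), 6.03 (VWF), 5.84 (KDR) and 5.42 (ERG). Below the filter were PECAM1 (5.18 with PBS), CDH5 (4.70), TEK (4.03), CLDN5 (3.57) and EMCN (3.48). These lay close to or below the highest Tag control. Of 6 progenitor and blood cell markers 0 passed the filter. Of 6 epithelial and fibroblast markers 3 passed it and 2 were lower, and the summed linear signal of these 6 ranged from 2305 to 2611 with PBS and from 1459 to 1626 with EPC-Exos. Most of this sum is the fibroblast gene COL1A1, which changed by -0.67, with PDGFRB of pericytes and fibroblasts at -1.29, while the epithelial gene EPCAM changed by -0.002. The part of these markers in the results below was not tested.

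After EPC-Exos the ABC genes called lower by more than 1.5-fold were ABCC3, an exporter of conjugated organic anions (2.30-fold), ABCA5, an A-subfamily protein of lysosomes and endosomes (2.02-fold), and ABCG1, an exporter of cholesterol, whose signal fell to background, so that the measured 2.23-fold has no exact size. The ABCC3 fold rests on 1 of its 2 probe sets. The other changed by -0.23 on the log2 scale and did not pass (adjusted p = 0.177, limma fit of every probe set). The largest rise was in ABCE1, which splits ribosomes after translation ends (1.73-fold). The filter on low signal left 21 of the 42 genes to test. With limma and a Benjamini-Hochberg adjusted p under 0.05, called in what follows, 3 were higher, 6 lower and 12 did not pass. The share called was 42.9%, near the 49.1% of all 11715 genes tested, and the share not overlapping between groups, 12 of 21 genes, was near the 55.7% of all genes. A change of at least 1.5-fold was called upward in 1 ABC gene and downward in 3. Of all genes 9.89% were so called, 3.94% upward and 5.96% downward. ABCG1, among the 6 and the 3 lower genes, was tested only through its PBS signal, so these counts and shares are a description. The median log2 change was -0.026 over the 21 genes and -0.011 over all genes, so the family as a whole showed no common direction. When every probe set with signal was fitted, 13 of 48 ABC probe sets were higher and 9 lower, and 45.8% of all such probe sets were called. Among these 9 the ABCG1 probe set and 1 of ABCA7 passed the filter only through their PBS signal.

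**Figure D1:**
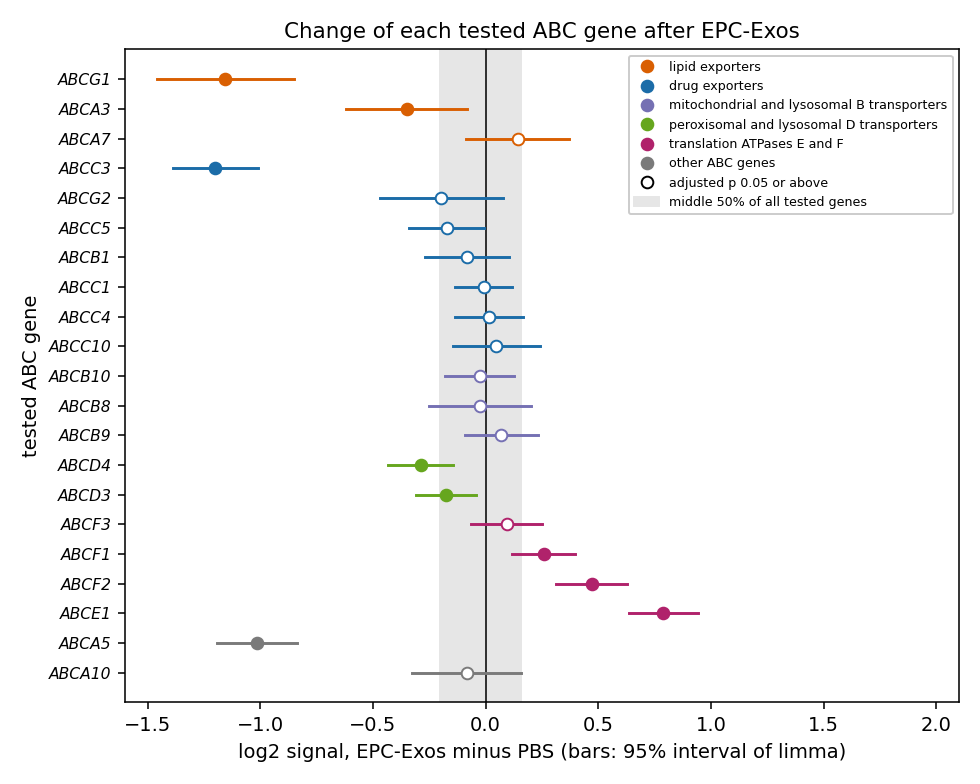
Change in log2 signal (EPC-Exos minus PBS, horizontal axis) of the 21 tested ABC genes, ordered by role, with the 95% interval of limma as a bar; filled points passed an adjusted p of 0.05, and the grey band spans the middle 50% of all tested genes. ABCG1, ABCC3 and ABCA5 stand below -1, ABCE1 stands highest at 0.79, and 6 of the 7 drug exporters have open points.

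Of the 12 lipid exporters on the array only 3 had enough signal to be tested, and ABCG1 and ABCA3 fell while ABCA7 did not pass. ABCG1 passes cholesterol and oxysterols to high-density lipoprotein. Its log2 signal was 5.96, 6.32 and 6.01 on the PBS arrays and 4.65, 5.23 and 4.94 on the EPC-Exos arrays. Every EPC-Exos array lay below every PBS array, and their mean, 4.94, was down at the Tag controls. The change was -1.16 ± 0.14 (SE; adjusted p = 4.62e-06, limma, n = 3 per group), and because the lower group sat at background the fold may be too small. ABCG1 passed the filter only through its PBS signal. All of its 5 probe sets had a lower mean with EPC-Exos, by -1.16 in the one that represents the gene and by -1.57, -0.88, -0.33 and -0.38 in those below the filter.

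ABCA3, which loads phospholipid into the lamellar bodies of lung epithelium, read 5.70, 5.97 and 5.80 on the PBS arrays and 5.21, 5.55 and 5.65 with EPC-Exos. The groups did not overlap, but the highest EPC-Exos array came within 0.05 of the lowest PBS array. The change was -0.35 ± 0.13 (adjusted p = 0.0306, limma), and the call was lost without PBS replicate 2 (adjusted p = 0.118), PBS replicate 3 (0.055) or EPC-Exos replicate 1 (0.178) and with each array centred on its median (0.0502). A second ABCA3 probe set, below the filter, read 5.62, 6.08 and 5.79 with PBS and 4.64, 4.99 and 4.79 with EPC-Exos. Its groups lay further apart, by -1.03, with the EPC-Exos arrays at or near background, and the remaining one, below the Tag controls, changed by -0.30, so the 3 probe sets had 1 direction and different sizes. ABCA7, a phospholipid transporter close to ABCA1, had 5.75, 6.09 and 5.91 with PBS and 6.13, 6.01 and 6.05 with EPC-Exos. Its groups overlapped and the change of 0.14 ± 0.11 did not pass (adjusted p = 0.297). A second ABCA7 probe set went the other way, from 6.18, 6.28 and 6.45 with PBS to 5.49, 5.40 and 5.08 with EPC-Exos. The groups did not overlap, but the EPC-Exos mean of 5.32 lies below the filter, so this probe set passed only through its PBS signal and its change of -0.98 is given as a value alone.

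The other 9 lipid exporters lay below the filter, 7 of them at or below the Tag controls in both groups, and 0 of them passed when limma was run on every gene with no filter (0 at an unadjusted p under 0.05), where 6.97% of genes below the filter did. ABCA1, which lipidates apolipoprotein A-I and is regulated by LXR like ABCG1, read 5.05, 4.75 and 4.93 on the PBS arrays and 4.91, 4.89 and 5.14 with EPC-Exos. These overlap and lie at the Tag controls, so a change of ABCA1 was not measurable on these arrays (0.073, 95% interval -0.18 to 0.32). ABCG4, a sterol exporter best known from brain, had means of 5.10 ± 0.16 with PBS and 5.27 ± 0.14 (SD, n = 3) with EPC-Exos. ABCA2, ABCA4, ABCA12, ABCB4, ABCB11, ABCG5 and ABCG8, which handle lipids, retinoids, bile salts or plant sterols in brain, retina, skin, liver and gut, had PBS means between 3.12 for ABCG5 and 4.67 for ABCA2.

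The drug exporters had more signal, with 7 of 10 tested, and ABCC3 was the one called, on 1 of its 2 probe sets. ABCC3, also called MRP3, exports glucuronide conjugates. Its log2 signal was 8.33, 8.58 and 8.66 on the PBS arrays and 7.39, 7.35 and 7.23 on the EPC-Exos arrays. Both groups stood well above background and did not overlap. The change was -1.20 ± 0.089 (adjusted p = 1.17e-08, limma). The gene has a second probe set, which read 6.20, 6.76 and 6.78 with PBS and 6.46, 6.35 and 6.24 with EPC-Exos. There the groups overlapped, and the change of -0.23 ± 0.13 did not pass (adjusted p = 0.177 in the fit of every probe set, limma). The per-array difference between the ABCC3 probe sets fell by 0.97 with no overlap of groups, a pair compared after its values were seen. An exact two-sided permutation over arrays gave p = 0.1. That is the smallest p it can give with 3 arrays per group, so it decides nothing. The probe set that fell is of the _s_at kind, which can bind transcripts of related genes, and without probe sets of the _x_at and _s_at kinds the ABCC3 call was lost (adjusted p = 0.166, limma).

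The other 6 tested drug exporters did not pass, and their 95% intervals, unadjusted for the number of genes, reached from -0.47 to 0.24 on the log2 scale. ABCC1, the glutathione conjugate exporter MRP1, had 9.33, 9.40 and 9.38 with PBS and 9.33, 9.43 and 9.33 with EPC-Exos. These arrays interleave, and the change was -0.0079 with an interval of -0.13 to 0.12, which leaves out a change of 1.5-fold. ABCC4, an exporter of cyclic nucleotides and prostaglandins, had 9.16, 8.94 and 9.06 with PBS and 9.05, 9.15 and 9.01 with EPC-Exos, a change of 0.015 (interval -0.13 to 0.17). ABCB1, P-glycoprotein, the drug efflux pump of the blood-brain barrier, had 6.73, 6.75 and 6.71 with PBS and 6.56, 6.69 and 6.69 with EPC-Exos. The groups of ABCB1 parted by a narrow gap, and its change of -0.082 (interval -0.27 to 0.10) did not pass (adjusted p = 0.47, limma). The other ABCB1 probe sets, with mean log2 signals of 4.79, 3.72 and 3.53, lay below the highest Tag control. These ABCB1 values therefore rest on the representative probe set alone. ABCG2, an efflux pump of broad substrate range, had 5.80, 5.85 and 6.10 with PBS and 5.48, 5.96 and 5.72 with EPC-Exos, with overlap and a change of -0.20 ± 0.13 (adjusted p = 0.228, limma). ABCC5, a cyclic nucleotide exporter, had 8.76, 8.80 and 9.07 with PBS and 8.74, 8.72 and 8.66 with EPC-Exos. All EPC-Exos arrays lay below the PBS arrays, and the change of -0.17 ± 0.079 missed the threshold (adjusted p = 0.0816, limma) but passed without PBS replicate 1 (adjusted p = 0.0228). ABCC10, an exporter of lipophilic drugs, had 7.18, 7.34 and 7.53 with PBS and 7.40, 7.40 and 7.39 with EPC-Exos, and its change of 0.047 ± 0.091 did not pass. ABCB5, ABCC2 and ABCC11 lay below the filter, with means between 4.72 and 4.97 in both groups.

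Set side by side, 2 of 3 tested lipid exporters and 1 of 7 tested drug exporters were called, all downward, where 27.3% of all genes were called lower and 21.7% higher. ABCG1 was tested only through its PBS signal, so the lipid count is a description and supports no statement on the list. No exporter of either list was called higher by limma, and 0 were higher at an unadjusted p under 0.05. The median log2 change of the 7 drug exporters was -0.082. With 9 of 12 lipid exporters and 3 of 10 drug exporters below the filter, a large part of the contrast could not be measured on these arrays, and the difference between the lists was not tested.

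**Figure D2:**
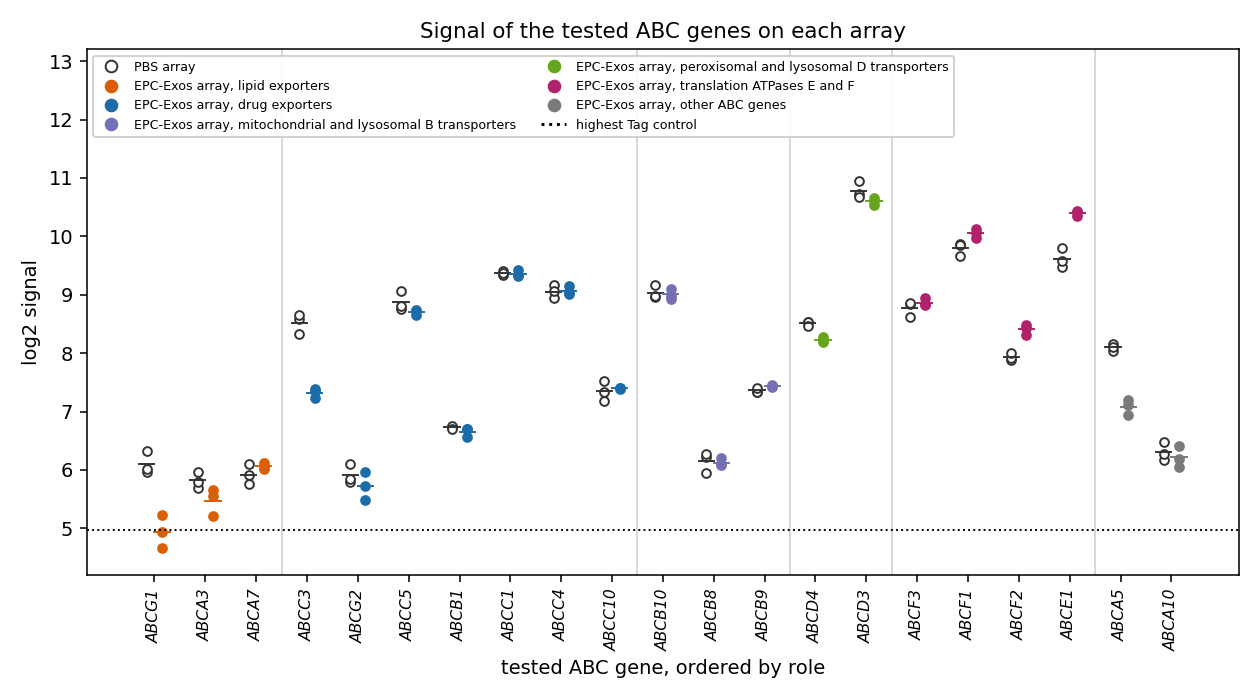
Log2 signal of the 21 tested ABC genes on each of the 6 arrays, ordered by role (open circles PBS, filled circles EPC-Exos, short lines group means, dotted line the highest Tag control at 4.97). ABCG1 falls from about 6 to the Tag control line, ABCC3 and ABCA5 drop by about 1 unit, and the arrays of ABCC1 and ABCC4 interleave.

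**Figure D3:**
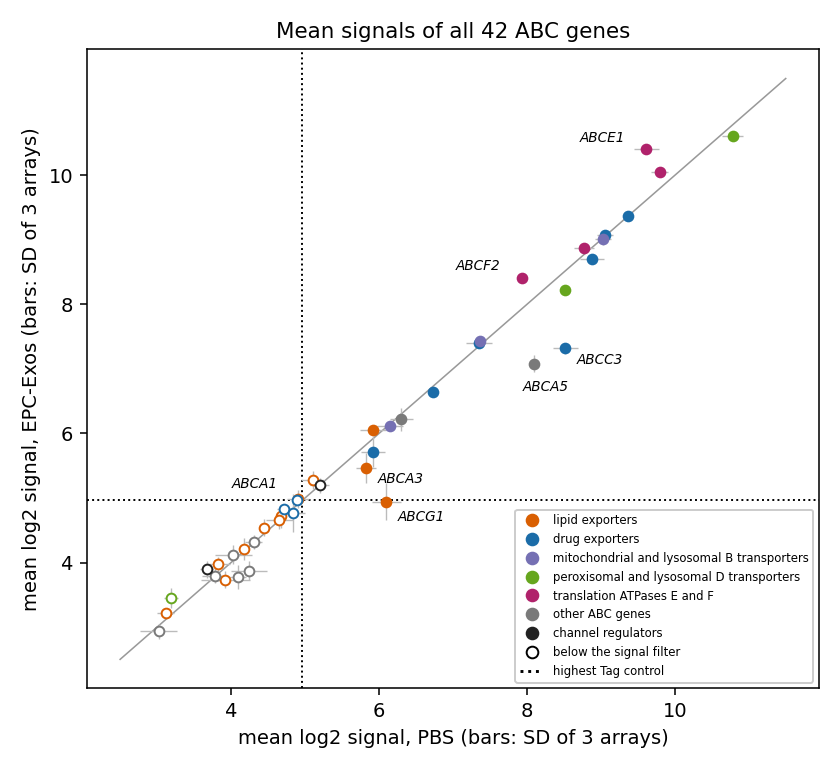
Mean log2 signal of all 42 ABC genes with PBS (horizontal axis) and with EPC-Exos (vertical axis), with the SD of 3 arrays as bars, open points for the 21 genes below the signal filter and dotted lines at the highest Tag control. Most lipid exporters, ABCA1 among them, sit at or below the dotted lines, and ABCC3, ABCA5 and ABCG1 lie below the diagonal of equal signal.

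ABCA5 belongs to neither list. Its log2 signal was 8.16, 8.03 and 8.10 with PBS and 7.19, 6.94 and 7.11 with EPC-Exos. The groups lay far apart, with a change of -1.01 ± 0.084 (adjusted p = 4.33e-08, limma). Its second probe set above the filter was also called lower, by -0.85 ± 0.10 (adjusted p = 2.54e-06 in the fit of every probe set, limma). In the RefSeq gene order ABCA8, ABCA9, ABCA6, ABCA10 and ABCA5 follow one another with no other coding gene between them. ABCA10 did not pass (-0.085 ± 0.11, adjusted p = 0.572, limma). This rests on a probe set of the _s_at kind. The other ABCA10 probe sets, with mean log2 signals of 3.60, 3.40 and 2.95, lay below the highest Tag control. ABCA6, ABCA9 and ABCA8 lay below the Tag controls in both groups. ABCA8 had 4.48, 4.24 and 4.0 with PBS and 3.70, 3.97 and 3.96 with EPC-Exos, and was the 1 of 21 ABC genes below the filter that passed once the filter was lifted (-0.36, adjusted p = 0.0375, limma), where 6.97% of such genes passed. ABCA6 changed by -0.31 (adjusted p = 0.0534) and ABCA9 by 0.015 in that fit by limma. ABCA13, ABCC12 and ABCC13 also lay below the Tag controls in both groups.

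The intracellular B members with signal did not pass. ABCB10 and ABCB8, of the inner mitochondrial membrane, changed by -0.026 ± 0.072 and -0.025 ± 0.11, and ABCB9, a peptide transporter of lysosomes, by 0.07 ± 0.076. Limma called 0 of these 3 genes, and 0 had an unadjusted p under 0.05. ABCC8 and ABCC9, which regulate potassium channels, lay below the filter, and ABCC9 stood below the Tag controls in both groups.

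Both tested D members were called lower by small amounts, ABCD3 with probe sets that disagree, and ABCD2, a peroxisomal fatty acid importer, lay below the Tag controls. ABCD4, which moves vitamin B12 out of lysosomes, had 8.54, 8.54 and 8.46 with PBS and 8.21, 8.27 and 8.19 with EPC-Exos. Its groups did not overlap, the change was -0.29 ± 0.068 (adjusted p = 0.00197, limma), and a second probe set was called lower too (-0.26 ± 0.097; adjusted p = 0.0401 in the fit of every probe set, limma). ABCD3, the major peroxisomal membrane protein, which imports branched fatty acids, had 10.94, 10.72 and 10.68 with PBS and 10.61, 10.66 and 10.54 with EPC-Exos. These groups parted by a narrow gap, with a change of -0.18 ± 0.063 (adjusted p = 0.0283, limma), and the call was lost without PBS replicate 1 (adjusted p = 0.138), EPC-Exos replicate 1 (0.0739) or EPC-Exos replicate 3 (0.123), with median centring (0.112), without _x_at and _s_at probe sets (0.0549) and without the variance trend (0.0971).

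The 5 probe sets of ABCD3 split in direction. The representative one and 2 others changed by -0.18, -0.15 and -0.18, while 2 that the annotation lists under 1 shared RefSeq transcript, other than those of the first 3, rose by 0.21 ± 0.066 (adjusted p = 0.0148) and 0.50 ± 0.10 (adjusted p = 0.000787, limma fit of every probe set). The one that rose most read 6.19, 6.41 and 6.09 with PBS and 6.83, 6.67 and 6.70 with EPC-Exos, with no overlap. Its per-array difference from the next brightest after the representative ABCD3 probe set shifted by 0.65, a pair also compared after its values were seen. The exact two-sided permutation over arrays gave p = 0.1 here too, which decides nothing. Averaged over its probe sets ABCD3 changed by 0.041, so a single value does not describe this gene.

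**Figure D4:**
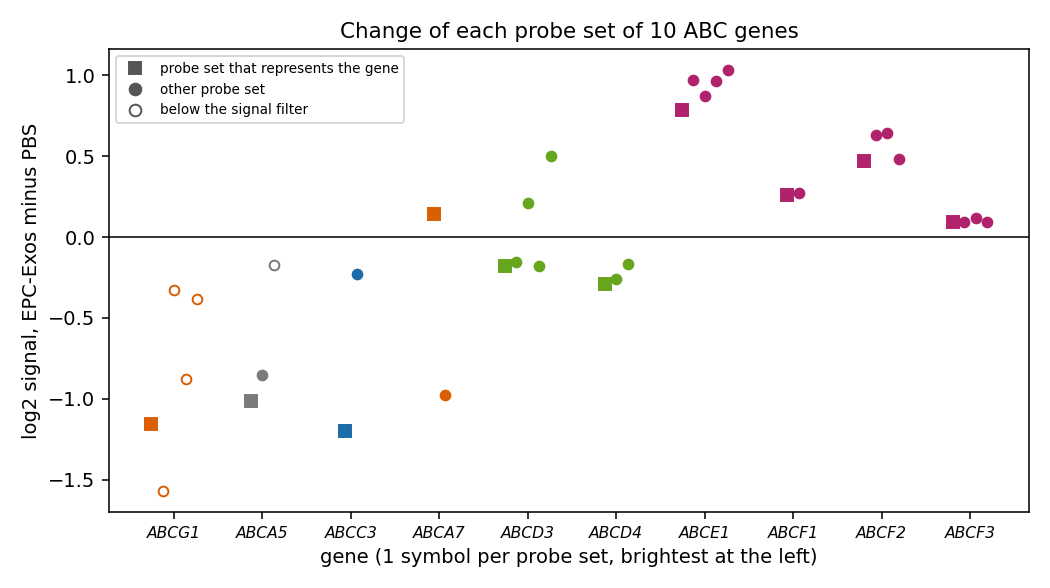
Change in log2 signal (EPC-Exos minus PBS, vertical axis) of each probe set of 10 ABC genes, brightest at the left of each gene, with squares for the probe set that represents the gene and open symbols below the signal filter. All 5 ABCE1 and all 4 ABCF2 probe sets lie above 0 and all 5 ABCG1 probe sets below it, whereas those of ABCA7 and ABCD3 lie on both sides.

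Among the translation proteins 3 of 4 rose, where 21.7% of all genes did, with a median log2 change of 0.36 beside -0.011 for all genes. ABCE1 read 9.80, 9.47 and 9.57 on the PBS arrays and 10.42, 10.43 and 10.35 with EPC-Exos. The groups did not overlap and the change was 0.79 ± 0.072 (adjusted p = 1.32e-07, limma). All 5 ABCE1 probe sets were called higher, by 0.79 to 1.03. ABCF2, a paralogue whose role is less known, had 7.88, 7.92 and 8.01 with PBS and 8.32, 8.47 and 8.43 with EPC-Exos. It rose by 0.47 ± 0.074 (adjusted p = 5.44e-05, limma) without overlap, and its 4 probe sets rose by 0.47 to 0.64. ABCF1, which binds the initiation factor eIF2 and ribosomes, had 9.66, 9.87 and 9.86 with PBS and 9.97, 10.13 and 10.06 with EPC-Exos. Again the groups did not overlap, with a change of 0.26 ± 0.066 (adjusted p = 0.00364, limma). ABCF3 had 8.62, 8.83 and 8.87 with PBS and 8.82, 8.94 and 8.84 with EPC-Exos, which overlap, and its change of 0.093 ± 0.075 did not pass (adjusted p = 0.328, limma); its 4 probe sets changed by 0.093 to 0.12.

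The promoter windows of the 4 translation genes and of ABCA5 are shown because the first 3 rose together, ABCF3 did not pass and ABCA5 fell. Each runs from 250 bases before to 50 bases after the gene's start, 5′ to 3′ on the gene's strand, from the RefSeq promoter table supplied for this work (GRCh38.p14), in which 33 of the 42 members were matched, ABCG1 and ABCC3 not among them. Capitals mark CACGTG, the E-box bound by MYC and related factors, and GCGTG, the core of the site bound by the xenobiotic receptor AHR, on either strand (CACGC on the strand shown). No E-box match overlapped a GCGTG match in these windows.
ABCE1, chr4:145098061-145098360, plus strand: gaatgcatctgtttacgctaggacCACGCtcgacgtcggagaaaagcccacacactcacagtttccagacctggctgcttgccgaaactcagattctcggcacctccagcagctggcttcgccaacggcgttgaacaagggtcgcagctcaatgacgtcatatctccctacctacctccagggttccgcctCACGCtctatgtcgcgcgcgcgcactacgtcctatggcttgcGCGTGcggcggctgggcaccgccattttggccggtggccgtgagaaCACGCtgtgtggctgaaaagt
ABCF1, chr6:30571192-30571491, plus strand: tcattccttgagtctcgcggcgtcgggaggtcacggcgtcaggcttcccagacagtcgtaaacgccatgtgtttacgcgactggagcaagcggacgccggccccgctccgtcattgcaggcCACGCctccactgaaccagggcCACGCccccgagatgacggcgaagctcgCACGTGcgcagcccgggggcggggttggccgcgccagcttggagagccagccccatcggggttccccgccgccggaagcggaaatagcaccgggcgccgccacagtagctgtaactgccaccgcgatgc
ABCF2, chr7:151227156-151227455, minus strand: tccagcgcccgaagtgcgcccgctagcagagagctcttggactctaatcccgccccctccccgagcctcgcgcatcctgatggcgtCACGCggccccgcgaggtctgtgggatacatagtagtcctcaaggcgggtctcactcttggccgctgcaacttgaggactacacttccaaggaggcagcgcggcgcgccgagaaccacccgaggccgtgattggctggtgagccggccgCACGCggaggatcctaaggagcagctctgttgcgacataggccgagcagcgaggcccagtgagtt
ABCF3, chr3:184185949-184186248, plus strand: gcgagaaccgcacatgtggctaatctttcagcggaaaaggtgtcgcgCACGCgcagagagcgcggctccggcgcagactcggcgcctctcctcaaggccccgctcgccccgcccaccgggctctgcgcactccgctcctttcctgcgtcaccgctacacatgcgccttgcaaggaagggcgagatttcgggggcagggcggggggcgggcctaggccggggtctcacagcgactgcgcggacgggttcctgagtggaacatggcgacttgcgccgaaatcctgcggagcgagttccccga
ABCA5, chr17:69327084-69327383, minus strand: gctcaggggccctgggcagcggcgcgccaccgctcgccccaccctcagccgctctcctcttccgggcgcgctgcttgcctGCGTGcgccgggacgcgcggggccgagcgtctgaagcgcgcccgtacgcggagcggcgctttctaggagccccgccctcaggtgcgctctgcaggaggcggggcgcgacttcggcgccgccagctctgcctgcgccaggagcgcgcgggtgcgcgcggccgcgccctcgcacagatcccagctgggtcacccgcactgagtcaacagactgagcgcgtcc
GCGTG was found 4 times in ABCE1, 2 times each in ABCF1 and ABCF2 and 1 time each in ABCF3 and ABCA5. It was held by 36.5% of all 35116 windows and by 66.7% of the 18 windows of tested ABC genes. The E-box was found in ABCF1 alone of these 5, and 7.26% of all windows and 5.56% of those 18 held it. The GC box GGGCGG, searched on both strands too, was found in all of the 5 but ABCE1. It was held by 45.0% of all windows and 72.2% of those 18. These windows are rich in G and C, between 59.7% for ABCE1 and 76.3% for ABCA5, and a match to letters is not a binding site.

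Genes whose products act with the ABC proteins, from a list of textbook partners, were called about as often as other genes. Of 12 tested partners 5 rose and 2 fell, 58.3% in all against 49.1% of all genes, and the median log2 change was 0.08. PELO, which works with ABCE1 on stalled ribosomes, rose by 0.45 ± 0.062, from 9.35, 9.37 and 9.19 to 9.76, 9.75 and 9.76 (adjusted p = 1.27e-05, limma). EIF2S1, a subunit of eIF2, which ABCF1 binds, rose by 0.68 ± 0.047 (adjusted p = 5.79e-09, limma). LMBRD1, the partner of ABCD4 in lysosomal vitamin B12 export, fell by 0.70 on the log2 scale, from 9.77, 9.83 and 9.78 to 9.14, 9.11 and 9.04 (adjusted p = 4.73e-08, limma). ISCU, the scaffold of iron-sulfur cluster assembly in mitochondria, fell by 0.41 on the log2 scale (adjusted p = 5.93e-07, limma). None of these 4 genes had overlapping groups.

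Most tested genes of the LXR sterol response, the receptors' partners and targets, were lower. The list was chosen with earlier results of these data known, and a cause shared with ABCG1 was not tested. By limma 7 of the 9 that could be tested, ABC genes aside, fell and 0 rose (7 and 0 at an unadjusted p under 0.05), where 27.3% of all genes were called lower, and their median change was -0.56 on the log2 scale beside -0.011 for all genes. SREBF1, the transcription factor of fatty acid synthesis, fell by 1.16 on the log2 scale, from 8.48, 8.66 and 8.88 to 7.42, 7.56 and 7.57 (adjusted p = 2.58e-08, limma). MYLIP, a ubiquitin ligase for the LDL receptor, had 8.53, 8.50 and 8.47 with PBS and 7.58, 7.60 and 7.36 with EPC-Exos. It fell by 0.98 on the log2 scale (adjusted p = 3.01e-08, limma). The apolipoprotein gene APOC1 and LPCAT3, which remodels phospholipids, changed by -0.87 ± 0.086 and -0.69 ± 0.063. APOE (-0.10, adjusted p = 0.377, limma) and PLTP (0.12, adjusted p = 0.416, limma) were tested and did not pass. NR1H3, the receptor LXR alpha, named after its values were seen, lay below the filter, with 4.88, 5.26 and 5.03 with PBS and 4.48, 4.31 and 4.57 with EPC-Exos. Its PBS mean of 5.05 lay close to the highest Tag control at 4.97 and its EPC-Exos mean of 4.45 below it. These are given as values alone.

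Genes of drug and oxidant responses, which include regulators of drug exporters, moved both ways: 6 rose and 7 fell among 18 tested, where 21.7% of all genes were called higher and 27.3% lower, and their median change was -0.035 on the log2 scale. CYP1B1, a steroid- and xenobiotic-oxidising enzyme controlled by AHR, fell 4.77-fold, from 8.09, 8.13 and 8.35 to 6.01, 6.19 and 5.62 (adjusted p = 2.96e-10, limma). AHR itself, the xenobiotic receptor, changed by -0.57 ± 0.068 (adjusted p = 2.88e-06, limma). GCLM, of glutathione synthesis, rose 2.40-fold and SLCO4A1, an uptake carrier of organic anions, 2.08-fold (adjusted p = 2.48e-11 and 3.01e-08, limma). Among ABC proteins under other symbols, TAP2 and TAP1, which load peptides for antigen presentation, rose by 0.80 ± 0.067 and 0.36 ± 0.060 (adjusted p = 4.82e-08 and 8.91e-05, limma), and the chloride channel CFTR lay below the Tag controls.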

How the data were processed

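RNA of 6 samples was measured, 3 per group, with groups and replicate numbers from the sample titles. The deposited table holds the authors' log2 signal for each of 49395 probe sets; its scale was read from the range of 2.47 to 14.52. The submitters' processing notes name MAS5 without a role; how probes were summarised and scaled is not given in the sources used here. No further scaling was applied. The number of arrays limits precision.

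Probe sets were named by the supplied platform annotation, with 44988 naming 1 gene; all 42 member symbols are in the RefSeq gene table. The brightest probe set by mean signal stood for each gene, which was tested where that mean reached the 40th percentile, a log2 signal of 5.45. The comparison used limma (version 3.58.1, R 4.3.3; lmFit, then eBayes with a variance trend, two-sided), with p-values adjusted by Benjamini-Hochberg over 11715 genes and called under 0.05. Changes are EPC-Exos minus PBS on the log2 scale. The fit was checked on simulated data for this comparison with 11715 genes, of which 200 were changed. There 62.7% of 67 genes changed 1.2-fold and 100% of those changed 1.5-fold or 2-fold were called, with 10 false calls. In the real data 49.1% of genes were called, a far larger share, so these rates need not hold there.

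Members and lists were chosen with earlier results of these data known. All ABC genes could be named; other genes were the up to 4 called members of each list with the largest changes. Marker genes, CFTR, NR1H3, APOE and PLTP fall outside this rule. They were picked with values in view. The alternatives were median centring, quantile normalization, an offset of 64, other filters, the mean of probe sets, no _x_at or _s_at probe sets, no variance trend, the replicate block and leaving out each array; a fit of every probe set was added after seeing the data. Replicates with the same number correlated in their deviations at 0.201, 0.185 and 0.077, so the numbers were not taken to pair samples.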

Additional observations from a re-analysis of the deposited data

How the results depend on the processing

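Across the alternatives the ABC genes called numbered 7 to 10, from differing numbers tested. With no filter they were 10 of 42, beside 5865 of 18132 genes in all. With the filter at the 60th percentile they were 7 of 14, beside 4896 of 8662. ABCA5, ABCD4, ABCE1, ABCF1 and ABCF2 kept their direction and call wherever they were tested. So did ABCG1 in the 14 alternatives that tested it. With the filter, however, ABCG1 is tested only through its PBS signal, so its call there is a description. Both called lipid exporters were lower; this count fell to 1 with median centring, where ABCA3 was lost, and to 0 with the filter at the 60th percentile, which leaves no lipid exporter to test, and ranged from 1 to 2 when each array was left out. With the mean of probe sets ABCG1 and ABCA3 fell below the filter and 1 other lipid exporter, ABCA7, was called. The called drug exporter was lost without _x_at and _s_at probe sets (0 called; ABCC3 -0.23, adjusted p = 0.166), and the count ranged from 1 to 2 when each array was left out. With the mean of probe sets ABCA7 turned to -0.42 (adjusted p = 0.00106) and ABCD3 to 0.041, which follows from probe sets of opposite direction. With the replicate block 6118 genes were called against 5748, and 9 ABC genes as before; every array correlated best with its own number in the other group, a hint from the data and not from the design. Signals near the Tag controls limit 21 of the 42 genes.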
